A study of Mus musculus with 3 samples.

Results

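The cells described here are mouse skin keratinocytes picked by their keratin transcripts: barcodes with at least 10 unique molecular identifiers (UMIs) of Krt5 and Krt14 together, fewer than 5 UMIs of Krt1 and Krt10 together, no UMI of Ptprc (the gene of CD45) and at most 5 UMIs of Cd74 (an antigen presentation gene of immune cells). The measured counts of these 6 genes chose the members, so their levels are given as a description only. Of 25791 skin cells that passed the cell filters in 2 libraries, 1311 were members, and the series as a whole held 31024 deposited barcodes in 3 libraries. By the sample descriptions, the RHS library was made from skin of mice given RHS and MC903, and the control library from skin of mice given MC903 alone. MC903 is calcipotriol, a vitamin D analogue that is put on mouse skin to bring on a dermatitis, and by these descriptions both groups carry it. The preparation text in the labels speaks instead of mice treated with ethanol (EtOH) or MC903. The 2 statements differ, the groups here follow the descriptions, and what the control mice received is uncertain to that extent. RHS is a label that the sources used here do not expand, and the series title places the study in the field of psychological stress and skin inflammation. Cells were enriched with CD45 beads and captured on the BD Rhapsody microwell system, so keratinocytes are cells that came through an enrichment aimed at leukocytes, and their share of a library is not their share of the skin. The number, strain, sex and age of the mice behind each library are not given in the labels. With 1 library in each group, no difference below has a replicate check and none was tested. Every interval covers counting error only, at the 95% level.

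Keratinocytes with Krt5 and Krt14 form the basal layer of the epidermis and the outer sheaths of the hair follicle, and they switch to Krt1 and Krt10 when they leave the basal layer to differentiate. Within the follicle, stem cells of the bulge feed the outer root sheath, dividing matrix cells at the base build the hair and the inner root sheath that moulds it, and the infundibulum opens onto the surface. The sebaceous gland hangs on the upper follicle, and its cells fill with fatty acids, cholesterol and wax esters before they burst. In MC903 dermatitis, keratinocytes are known as a source of the cytokine Tslp.

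Members numbered 421 of 13068 kept cells in the RHS library and 890 of 12723 in the control library. They held 3820155 UMIs in the RHS library and 8391592 in the control library, with medians of 7692 and 8288 UMIs per cell. Their median share of mitochondrial UMIs was 9.81% in the RHS library and 8.48% in the control library, against 4.60% and 4.58% in the other kept cells. Scrublet called none of the members a doublet, and 115 and 155 of the other kept cells of the RHS and control libraries. The 2 skin libraries shared 5 cell barcodes, none of them a member.

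Near the edge of the keratin gate, 39 members of the RHS library and 94 of the control library had 10 to 12 UMIs of Krt5 and Krt14, while 37 and 98 cells just outside it had 7 to 9. At the edge of the Krt1 and Krt10 limit, 2 and 11 members had 3 to 4 UMIs of these genes, and 2 and 8 cells left out had 5 to 7. A further 22 cells of the RHS library and 15 of the control library failed on Ptprc alone, and 9 and 22 on Cd74 alone. Krt14 had a UMI in every member, but 157 of 421 members in the RHS library and 192 of 890 in the control library had none of Krt5.

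The name basal and follicular keratinocyte covered only some of these cells. Of the 20 genes with the highest level in members over the other kept skin cells, many were lipid and steroid genes of the kind a sebaceous gland makes. Cyp17a1, a steroid hydroxylase, stood 62.5-fold higher in members than in other cells, Cidea, a lipid droplet protein, 53.0-fold, Fa2h, a fatty acid hydroxylase, 49.3-fold, and the fatty acid elongases Elovl6 and Elovl3 46.8-fold and 46.5-fold. The members are therefore called here by their rule, the Krt5 and Krt14 gated keratinocytes.

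As a share of kept cells, these keratinocytes made up 3.22% of the RHS library (interval 2.93% to 3.54%) and 7.00% of the control library (6.56% to 7.45%), a ratio of 0.461 (0.409 to 0.518). When only kept cells without Ptprc and with at most 5 Cd74 UMIs were counted, the shares were 9.46% of 4449 cells in the RHS library and 15.3% of 5806 cells in the control library, a ratio of 0.617. A more stringent limit of 10% mitochondrial UMIs gave a ratio of 0.349. The bead enrichment sets how many cells without CD45 stay in a library, and its yield cannot be told apart from the group.

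Leiden clustering of the members of both libraries, with the 6 gate genes left out, gave 8 clusters, numbered from 0. Cluster 0 held 101 cells of the RHS library and 177 of the control library and was led by Krt6a, Defb6, Krtdap, Postn and Cstdc5, with 4 of 9 upper follicle markers and 4 of 10 bulge and outer root sheath markers. Cluster 1 held 23 and 230 cells and was led by Col14a1, Dct, Hsd11b2, Igfbp7 and Cntfr, and cluster 4 held 10 and 137 cells and was led by Krt28, Dcn, Krt25, Dlx3 and Stc1. Cluster 2 (103 and 143 cells) was led by Thbs1, Lcn2, Cxcl1, Il19 and Ifi202b, cluster 3 (79 and 76 cells) by Ccl3, Srgn, Ermp1, Akr1c18 and Icos, and cluster 7 (19 and 25 cells) by Mmp13, Cxcl1, Thbs1, Ube2c and Top2a. Cluster 5 (56 and 61 cells) and cluster 6 (30 and 41 cells) were sebaceous-like, with 5 and 7 of the 7 sebaceous markers. The other clusters stay unnamed, either because their leading genes mixed compartments or because, as in cluster 3, immune transcripts such as Ccl3 and Icos were among the leading genes. Only 6.45% and 7.74% of the cells of cluster 3 had a UMI of Ccl3 and Icos. Ermp1 and Plin2, also among its 10 leading genes, had one in 79.4% and 96.1%. Cluster 1 had 5 of 10 bulge and outer root sheath markers and 5 of 7 matrix and hair germ markers, and cluster 4 had 6 of 7 matrix and hair germ and 3 of 7 inner root sheath markers. Clusters 1 and 4 came mostly from the control library, so they may be that library and not a kind of cell. These genes defined the clusters and are no result.

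**Figure D1:**
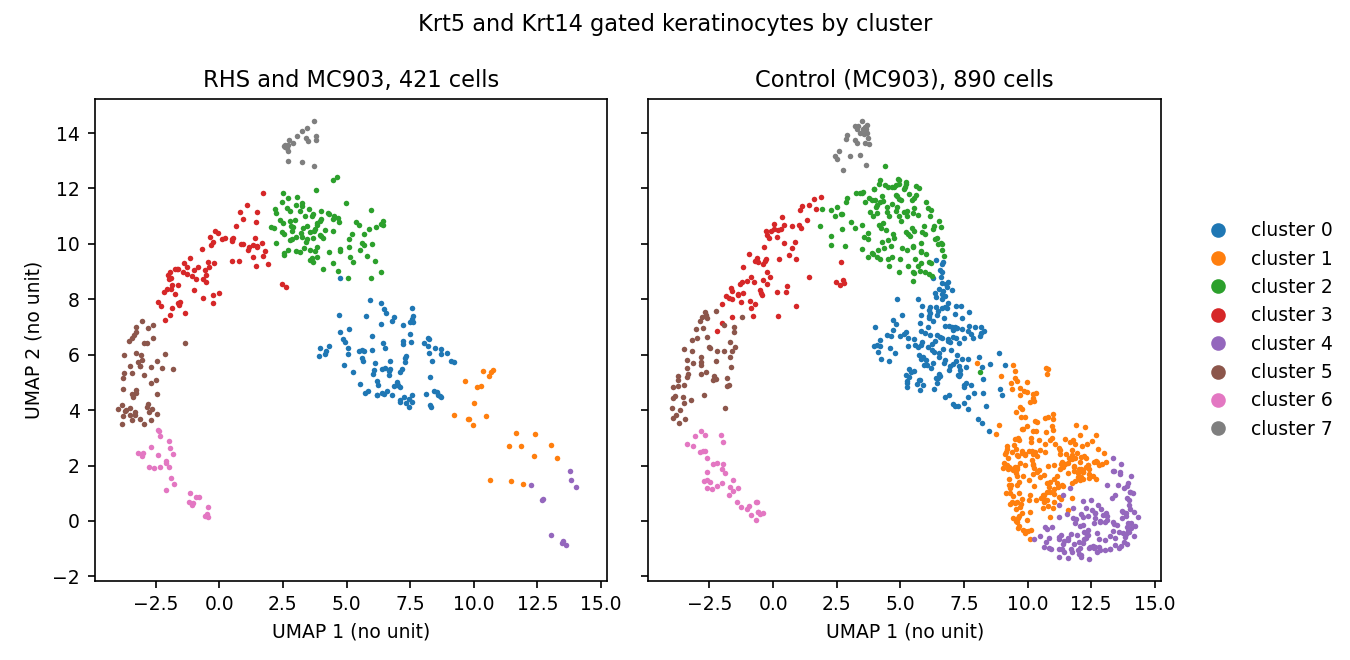
UMAP of the 421 members of the RHS library (left) and the 890 members of the control library (right), each point 1 cell coloured by its cluster, on axes without units. Clusters 1 and 4 are thinly filled in the RHS panel (23 and 10 cells) and densely filled in the control panel (230 and 137 cells). Clusters 3, 5, 6 and 7 hold similar numbers of cells in both, which are larger shares of the fewer RHS members. Cluster 3 holds 18.8% of RHS members and 8.54% of control members, and cluster 5 holds 13.3% and 6.85%. Distances between clusters carry no measured quantity.

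The make-up was then described without clusters, by the share of members with UMIs of at least 2 genes of a marker list. Each member was first thinned to 5700 UMIs, which left 302 members of the RHS library and 688 of the control library and removed 119 and 202 shallower ones. Transcripts of the upper follicle list were nearly universal, in 94.0% of members of the RHS library and 95.4% of the control library (ratio 0.986, interval 0.855 to 1.14). This list does not single out upper follicle cells. It was met by 99.0% of members in cluster 1 and 96.4% in cluster 4, where 0 of its 9 genes counted as markers of cluster 4. Basal epidermis transcripts were found in 77.2% and 87.8% of members. Those of differentiated epidermis, which the Krt1 and Krt10 limit holds down, were found in 34.1% and 25.9%.

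The lowest ratios of these shares were those of lower follicle lists. Matrix and hair germ transcripts were found in 1 of 302 members of the RHS library and 62 of 688 of the control library, that is 0.331% and 9.01% (ratio 0.0367, interval 0.00092 to 0.212). Inner root sheath transcripts were found in 12 of 302 and 105 of 688, that is 3.97% and 15.3% (ratio 0.260, 0.130 to 0.474). Bulge and outer root sheath transcripts were found in 31.1% and 50.4% (ratio 0.617, 0.486 to 0.777). Companion layer transcripts were found in 7.29% and 11.5%, with an interval of the ratio (0.377 to 1.03) that holds 1. Sebaceous transcripts went the other way, in 78.8% of members of the RHS library and 43.2% of the control library (ratio 1.83, 1.53 to 2.17). In cells with Ptprc, bulge and outer root sheath transcripts were found in 1.00% of the RHS library and 2.13% of the control library. Sebaceous transcripts were found in 8.00% and 6.47% of them. Some listed genes are not confined to the gland: before thinning, Pparg had a UMI in 9.85% and 10.9% of Ptprc cells. Without thinning, sebaceous transcripts were found in 69.6% and 43.9% of members and inner root sheath transcripts in 5.94% and 18.2%.

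**Figure D2:**
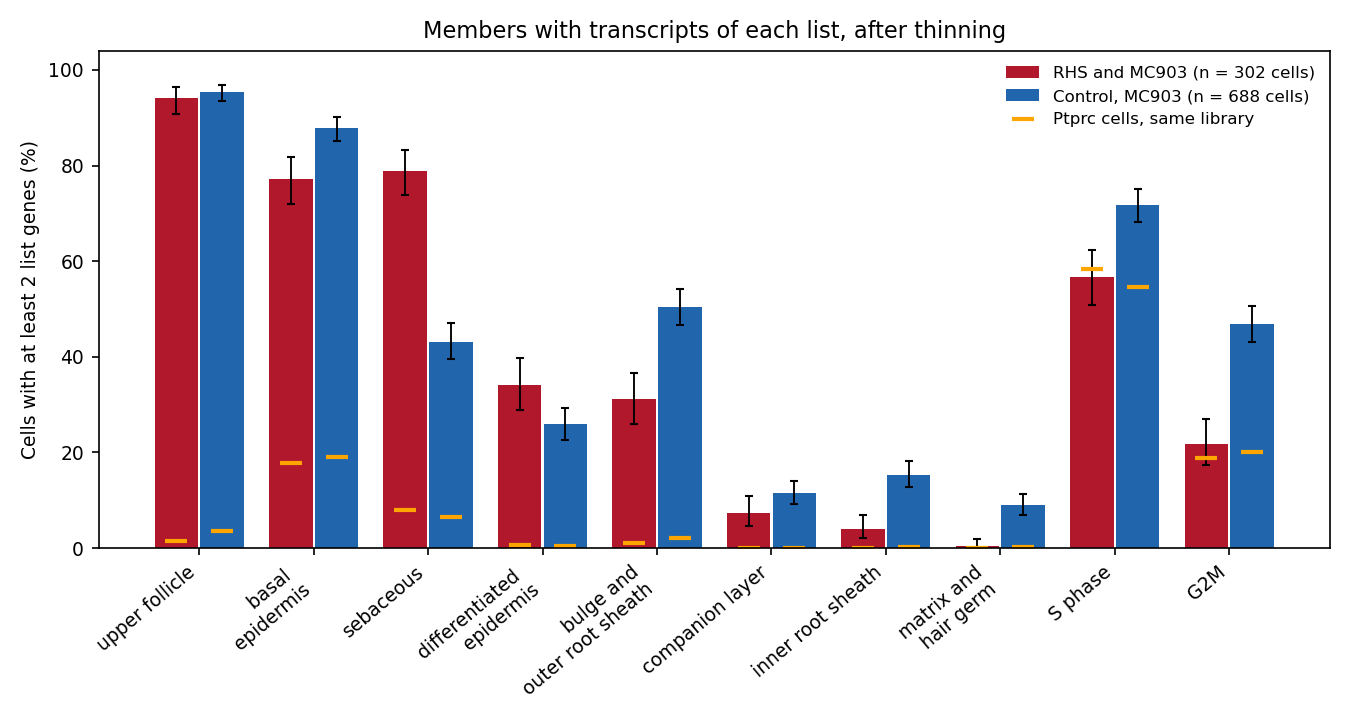
Percent of members with UMIs of at least 2 genes of each marker list after thinning to 5700 UMIs, with the RHS library (302 cells) left of the control library (688 cells) in each pair; error bars are exact 95% binomial intervals and orange marks give the share in Ptprc cells of the same library, thinned alike. Sebaceous transcripts are more frequent in the RHS library (78.8% against 43.2%), inner root sheath, matrix and G2M transcripts less frequent, and in the RHS library the S phase and G2M shares lie close to those of its Ptprc cells, while in the control library both lie above them.

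Gene levels were compared as CPM, the summed UMIs of all members scaled to the same total in each library, and a gene was counted as higher or lower when its ratio of RHS over control was at least 1.5-fold, with at least 50 counts in the library where it was higher. Of 8647 genes with enough counts, 517 were higher in the RHS library, a background of 5.98%, and 1451 were lower, a background of 16.8%. Among the 13265 genes with enough counts in the other kept skin cells, 2.04% were higher and 13.0% lower, so lower genes outnumbered higher ones there too. Because the 2 libraries hold the clusters in different proportions, each ratio was also computed with the clusters given the same weight in both libraries. The weight of a cluster was its share of the UMIs of all members. Clusters 1 and 4 enter the RHS side through only 23 and 10 cells. Weighted values of genes found mostly in these clusters therefore rest on few RHS cells. By these weighted ratios 255 genes were higher (2.95%) and 725 lower (8.38%). Both ratios are given below for many of the genes, and a ratio given alone is unweighted.

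The 12 genes with the highest ratios were Hspa1a, Serpina3j, Cyp17a1, Ccn2, Tyrp1, Hacl1, Cyp2g1, Hspa1b, Acot2, Slc1a1, Akr1c18 and Duox1. Cyp17a1 and Akr1c18 act on steroids, Hacl1 on branched and hydroxylated fatty acids in the peroxisome, and Acot2 is a mitochondrial acyl-CoA thioesterase. Serpina3j, of a large family of protease inhibitors with similar genes, was at 66.8 CPM in the RHS library and 17.3 CPM in the control library, from 28 and 24 cells. Ccn2 (a matrix protein induced in tissue repair) rested on few cells, with 63 counts in 14 cells of the RHS library and 44 counts in 21 cells of the control library, and 43 of the 63 in 1 cell. Hacl1 had 85 counts in 27 cells of the RHS library, 46 of them in 1 cell, and 63 counts in 47 cells of the control library. The 12 genes with the lowest ratios were Hsd11b2, Cpxm1, Pappa, Calcb, Msx2, Dlx2, Col27a1, Fzd10, Hoxc5, Chst2, Kif22 and Gdpd5. Msx2, Dlx2 and Hoxc5 are homeobox factors, the first of them a regulator of hair shaft formation, Fzd10 is a Wnt receptor, and Calcb encodes the beta form of the neuropeptide CGRP.

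Matrix and inner root sheath genes were lower in the RHS library. Of the 6 matrix and hair germ genes with at least 20 counts, all 6 were at least 1.5-fold lower, and of 5 inner root sheath genes 4 were lower, where at this count minimum 19.5% of 10449 genes were lower and 7.32% higher. Their median log2 ratios were -2.63 and -1.99 (-0.61 and -0.22 with clusters weighted), against -0.09 over all genes. Msx2 had 2 counts in the RHS library and 67 in the control library, a ratio of 0.0656 (0.00778 to 0.246). Dlx2 was at 6.54 CPM in the RHS library, from 14 cells, and 86.4 CPM in the control library, from 268 cells, a ratio of 0.0758 (weighted 0.382).

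Krt25 and Krt28 are type I keratins of the inner root sheath and sit in the keratin cluster of chromosome 11. Krt25 had 35 counts in 7 cells of the RHS library and 679 counts in 145 cells of the control library, a ratio of 0.113 (0.0782 to 0.159). Krt28 had 27 counts in 12 cells and 390 counts in 120 cells, a ratio of 0.152 (0.0989 to 0.225). Their weighted ratios were 0.702 and 0.858, and inside cluster 4, the cluster they helped to define, the RHS library had 343 CPM of Krt25 against 339 CPM in the control library. Only 10 RHS cells stand behind that value, and 1 of them held 25 of the 34 counts. Krt28 in cluster 4 was at 212 CPM, from 21 counts in 6 RHS cells, against 238 CPM in the control library (ratio 0.892, 0.545 to 1.39). In cluster 1, by contrast, Krt25 had no count in the RHS library and 201 counts in the control library. Fewer cells of the RHS library carried these transcripts.

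The promoters of the pair are shown because both genes move together in these cells. Each line gives the 250 bases before the RefSeq gene start (build GRCm38.p6, minus strand, chr11:99322952-99323201 for Krt25 and chr11:99374904-99375153 for Krt28), 5′ to 3′, with CCAAT and TATAAA in capitals.
Krt25: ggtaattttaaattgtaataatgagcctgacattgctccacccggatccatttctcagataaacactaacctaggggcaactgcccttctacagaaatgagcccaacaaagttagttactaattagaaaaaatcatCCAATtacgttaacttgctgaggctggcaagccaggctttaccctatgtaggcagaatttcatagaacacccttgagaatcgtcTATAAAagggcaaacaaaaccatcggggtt
Krt28: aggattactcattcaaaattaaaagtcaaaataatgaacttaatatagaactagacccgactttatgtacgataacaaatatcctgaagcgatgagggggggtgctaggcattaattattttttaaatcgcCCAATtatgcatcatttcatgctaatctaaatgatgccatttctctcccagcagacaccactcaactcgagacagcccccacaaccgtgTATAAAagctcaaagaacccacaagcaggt
Both hold TATAAA at -30 and 1 CCAAT, at -114 in Krt25 and at -119 in Krt28, counting back from the gene start. Both strands were searched, and the motifs were chosen after the gene values were seen. TATAAA is found in 14.3% of 27025 promoters of the same length and CCAAT in 37.5%. A match is a run of letters and no proof of use.

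Hsd11b2, which turns active glucocorticoid (corticosterone in mice) into its inactive form and so shields cells from the hormone, and Fzd10 were the markers given for these cells. Hsd11b2 had 9 counts, 1 in each of 9 cells, in the RHS library, and 586 counts in 156 cells of the control library, a ratio of 0.0337 (0.0153 to 0.0645, weighted 0.0488). In cluster 1, none of 23 RHS cells and 102 of 230 control cells had a count of it, with totals of 0 and 466, so that even 3 counts in the RHS library would give a ratio of 0.0786. In cluster 0 the counts were 0 and 26, and in cluster 4 they were 1 and 70. In the other kept skin cells the ratio was 0.217. Fzd10 had 8 counts in the RHS library and 214 in the control library, a ratio of 0.0821 (0.0350 to 0.165, weighted 0.142). Most of it lay in cluster 4, with 1 count in 10 RHS cells and 132 counts in 137 control cells. Of 26 Wnt genes with enough counts, 3 were at least 1.5-fold higher and 15 lower (over all genes, 7.32% were higher and 19.5% lower), with a median log2 ratio of -0.73 (-0.04 with clusters weighted). Since the 2 markers were chosen with these data known, their direction is a description. The receptor for glucocorticoids, Nr3c1, was at 37.7 CPM in the RHS library and 36.8 CPM in the control library (ratio 1.02), and Fkbp5, a classic glucocorticoid target, at 234 and 146 CPM (ratio 1.60, weighted 0.984). Fkbp5 did not stand for its list. Of 14 glucocorticoid genes with enough counts, Hsd11b2 among them, 3 were at least 1.5-fold higher, 5 were lower and 9 lay below 1. Over all genes, 6139 of 10449 lay below 1. The median log2 ratio of this list was -0.32, and -0.02 with clusters weighted.

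Bulge and outer root sheath genes were mixed. Lhx2, a stem cell homeobox factor, was at 19.4 CPM in the RHS library and 77.9 CPM in the control library, a ratio of 0.249 (0.193 to 0.317), but its weighted ratio was 1.18 and its ratio inside cluster 1 was 0.964 (0.655 to 1.38). Lgr5, a Wnt-linked receptor of cycling follicle stem cells, had 17 and 204 counts, a ratio of 0.183 (weighted 0.785). Sox9, a factor of the outer root sheath, was at 365 CPM in the RHS library and 331 CPM in the control library (ratio 1.10). Its weighted ratio was 0.753, with ratios of 1.25, 0.749, 0.608 and 0.687 in clusters 0, 2, 3 and 5. Cd34, a marker of the resting bulge in mice, had only 30 counts in 9 cells of the RHS library and 28 counts in 11 cells of the control library. Over the 9 genes of the list with enough counts the median log2 ratio was -0.47, and 0.28 with clusters weighted.

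Fewer members of the RHS library carried mitotic transcripts. UMIs of at least 2 G2M genes were found in 21.9% of members of the RHS library and 46.8% of the control library after thinning (ratio 0.467, 0.353 to 0.610), against 18.7% and 20.1% of Ptprc cells. The interval of the RHS share (17.3% to 27.0%) held the share of its Ptprc cells. Without thinning the shares were 30.4% and 47.6% (ratio 0.638), against 13.5% and 14.3% of Ptprc cells. For S phase genes the shares were 56.6% and 71.7%, against 58.4% and 54.6% of Ptprc cells (ratio 0.790, 0.660 to 0.942). The RHS share lay near that of its Ptprc cells and the control share above that of its own. Of 21 G2M genes with enough counts, 20 were at least 1.5-fold lower in the RHS library, against 19.5% of all genes, and the median log2 ratio of the list was -1.22. Mki67, a marker of dividing cells, was at 22.8 CPM in the RHS library and 36.7 CPM in the control library (ratio 0.620, 0.483 to 0.790), and Top2a, the topoisomerase of mitosis, at 38.0 and 73.4 CPM (ratio 0.517). With clusters weighted, the G2M median was 0.18 and the ratios of Mki67 and Top2a were 1.47 and 1.196. The share of cells with G2M transcripts was 70.0% in cluster 1, 85.4% in cluster 4 and 97.4% in cluster 7, against 2.61% in cluster 5. Uhrf1, a DNA methylation factor of S phase, was the member of its list that stayed lowest, at 13.1 CPM in the RHS library and 73.2 CPM in the control library (ratio 0.179, weighted 0.494).

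Sebaceous and cholesterol genes were higher in the RHS library as summed over members. Of the 7 sebaceous genes, 6 were at least 1.5-fold higher and 1 lower. Of 15 cholesterol synthesis genes 7 were higher, 0 were lower and 14 lay above a ratio of 1. Over all genes, 7.32% were higher and 19.5% lower, and 4310 of 10449 lay above a ratio of 1. Scd1, which puts the double bond into stored fatty acids, was at 8080 CPM in the RHS library and 4588 CPM in the control library, a ratio of 1.76 (1.73 to 1.79). Elovl6 was at 6216 and 3478 CPM (ratio 1.79), Idi1, which isomerises an isoprenoid building block, at 1208 and 680.0 CPM (ratio 1.78), and Pparg, the nuclear receptor of fat and sebaceous cells, at 44.0 and 21.1 CPM (ratio 2.09, 1.68 to 2.59). The weighted ratios were 0.923 for Scd1, 0.947 for Elovl6, 0.977 for Idi1 and 1.17 for Pparg, and the weighted list medians were -0.01 (sebaceous) and -0.03 (cholesterol). Inside sebaceous-like cluster 5, Scd1 was at 17709 CPM in the RHS library and 18212 CPM in the control library. Scd1 had a UMI in 72.7% of members of the RHS library and 60.6% of the control library, and Pparg in 23.3% and 11.5%, whereas Idi1 had one in 53.9% and 52.8%.

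Cyp17a1 differed within clusters as well. It was at 401 CPM in the RHS library and 242 CPM in the control library in cluster 5 (ratio 1.66, 1.38 to 2.00), at 524 and 225 CPM in cluster 6 (2.33, 1.91 to 2.84) and at 160 and 74.0 CPM in cluster 3 (2.17, 1.57 to 3.02). All 3 intervals lay above 1. In cluster 2, Cyp17a1 had 1 count in the RHS library and 10 in the control library, the other direction but too few for a ratio. Its ratio over all members was 3.74 (weighted 1.94), and that of Cyp2g1, another cytochrome P450, was 2.86 (weighted 1.69). Within clusters Cyp2g1 had ratios of 1.29 (0.912 to 1.84) in cluster 5 and 1.74 (1.59 to 1.90) in cluster 6. Akr1c18 had a ratio of 1.90 (1.61 to 2.26) in cluster 2 and 0.923 (0.756 to 1.13) in cluster 3, where the interval held 1.

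The promoters of Idi1 and Hmgcs1, the synthase that begins the mevalonate pathway, are shown as the promoters of a pair of cholesterol genes, 1 with and 1 without the sterol response letters. The lines give the 250 bases before the RefSeq start (GRCm38.p6, plus strand, chr13:8885356-8885605 for Idi1 and chr13:119690101-119690350 for Hmgcs1), 5′ to 3′, with CCAAT on either strand and the sterol response letters TCACNCCAC in capitals.
Idi1: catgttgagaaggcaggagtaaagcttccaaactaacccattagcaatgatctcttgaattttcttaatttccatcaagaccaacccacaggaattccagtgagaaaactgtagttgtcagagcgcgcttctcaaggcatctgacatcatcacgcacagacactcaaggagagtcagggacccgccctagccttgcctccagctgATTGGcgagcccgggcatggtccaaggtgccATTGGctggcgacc
Hmgcs1: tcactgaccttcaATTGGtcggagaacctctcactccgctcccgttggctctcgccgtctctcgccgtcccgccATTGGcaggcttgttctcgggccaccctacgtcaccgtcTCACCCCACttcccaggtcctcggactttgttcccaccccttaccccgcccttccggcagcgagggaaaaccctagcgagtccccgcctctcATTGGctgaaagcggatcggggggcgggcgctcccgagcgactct
Idi1 holds CCAAT on the minus strand at -45 and -14. Hmgcs1 holds it on the minus strand at -237, -176 and -45, and TCACNCCAC on the plus strand at -137. CCAAT was present in 9 of the 9 listed cholesterol genes that had a promoter in the table, out of 15 listed. TCACNCCAC was present in 1 of the 9, that of Hmgcs1, and in 1.23% of all 27025 promoters, and CCAAT in 37.5% of them. Hmgcs1 itself was at 284 CPM in the RHS library and 214 CPM in the control library (ratio 1.33, weighted 0.938).

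Most basal genes lay below a ratio of 1, and keratins were mixed. Of 10 basal epidermis genes with enough counts, 0 were at least 1.5-fold higher, 2 were lower and 8 lay below 1. Over all genes, 7.32% were higher and 19.5% lower, and 6139 of 10449 lay below 1. The median log2 ratio of the basal list was -0.27, and 0.06 with clusters weighted. Krt5 was at 714 CPM in the RHS library and 847 CPM in the control library (ratio 0.843), and Krt14 at 2895 and 2638 CPM (ratio 1.10), both fixed in part by the gate. Cluster 0 had the highest Krt5 level, at 2771 CPM in the RHS library and 2213 CPM in the control library, and cluster 5 the lowest, at 6.66 and 3.90 CPM. Krt15, a keratin of basal and bulge cells, had a ratio of 0.813 (weighted 1.24). Of 16 hemidesmosome and basement membrane genes, 8 were at least 1.5-fold lower and 0 higher (over all genes, 7.32% were higher and 19.5% lower). Of the 16, 14 lay below a ratio of 1. Their median log2 ratio was -0.68, and -0.09 with clusters weighted. Itgb4, the integrin of the hemidesmosome, was at 24.3 CPM in the RHS library and 42.7 CPM in the control library (ratio 0.571, weighted 0.781). Col17a1, its collagen, was at 114 and 102 CPM (ratio 1.11), 1 of the 2 genes of that list above 1. Krt17 and Krt16, keratins of the follicle and of stressed epidermis, had ratios of 0.558 and 0.427 (weighted 0.799 and 0.989). Krt6a, another such keratin, went the other way over all members, with a ratio of 1.27 (1.19 to 1.35, weighted 1.29). That direction did not hold throughout. The ratio of Krt6a was 1.29 in cluster 0 but 0.808 (0.642 to 1.01) in cluster 2. It was 0.814 without clusters 1 and 4 and 1.03 with at most 10% mitochondrial UMIs. Krt79, a keratin of the infundibulum and gland duct, was at 3082 CPM in the RHS library and 1730 CPM in the control library, a ratio of 1.78 (weighted 1.03).

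**Figure D3:**
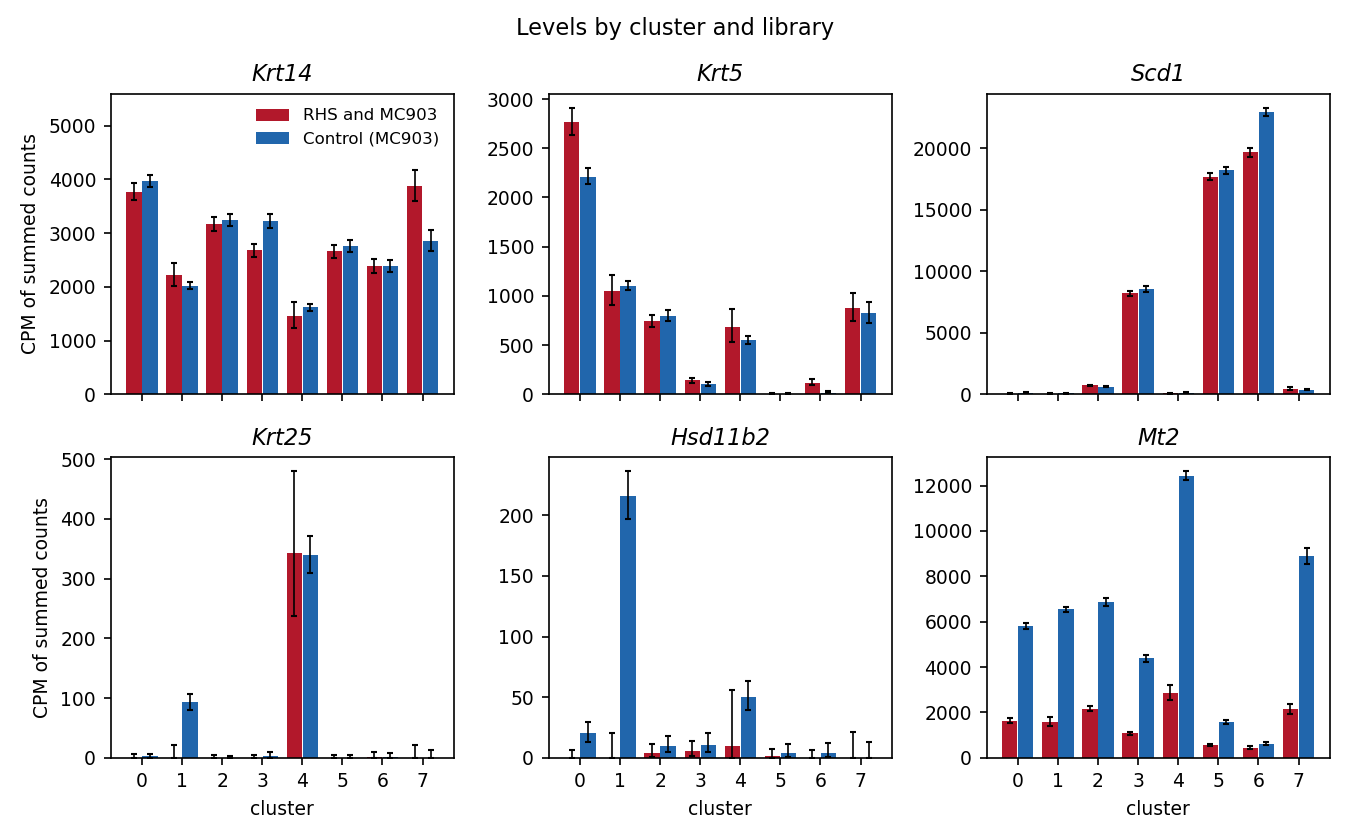
CPM of summed counts in each of the 8 clusters, with the RHS library left of the control library and exact 95% Poisson intervals of counting error; each panel has its own linear axis from 0. Krt25 is at 343 and 339 CPM in cluster 4, where 1 RHS cell held 25 of 34 counts, Scd1 is at 17709 and 18212 CPM in cluster 5, Hsd11b2 has no count in RHS cells of cluster 1, and Mt2 is lower in the RHS library in every cluster.

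**Figure D4:**
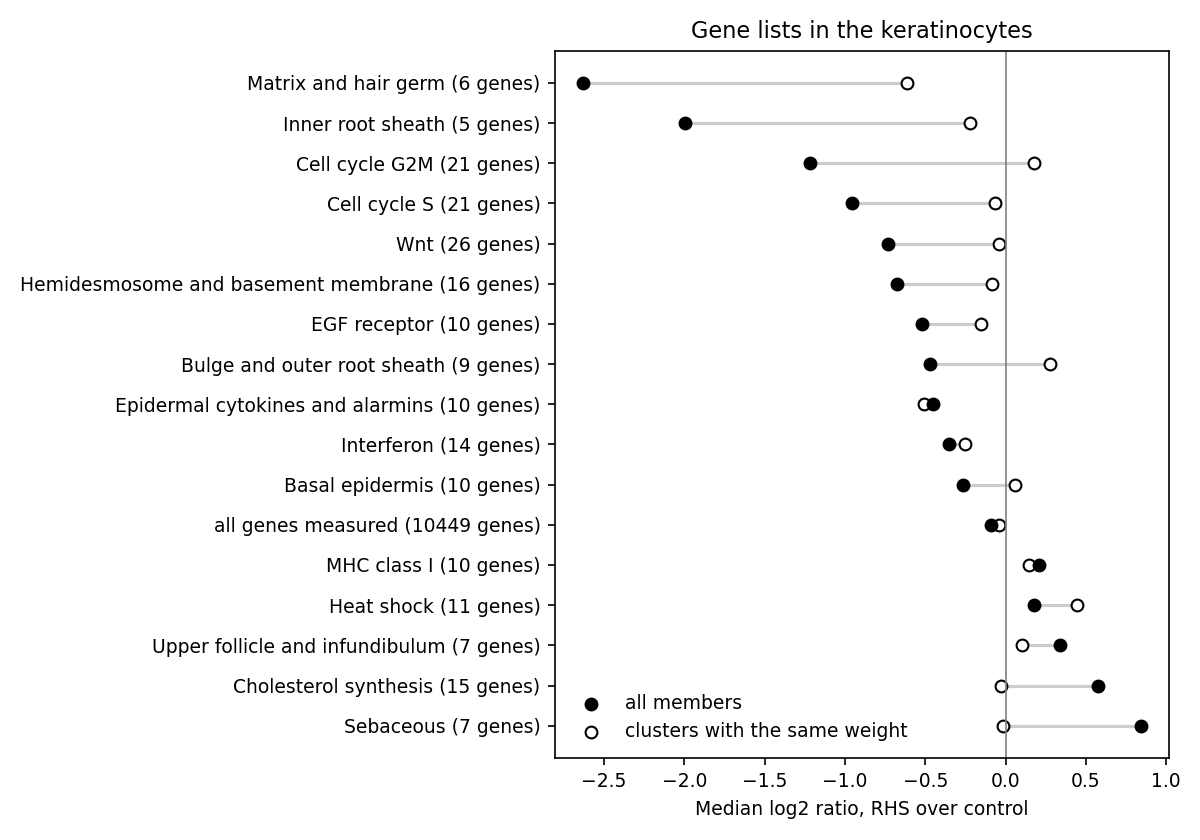
Median log2 ratio of RHS over control for gene lists, over all members (filled) and with clusters given the same weight (open); the number of genes with at least 20 counts follows each name. The matrix, inner root sheath, cell cycle, cholesterol and sebaceous lists lie far from 0 over all members and closer to it after weighting, while the heat shock list lies further from 0 after weighting (0.18 and 0.45).

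The inducible heat shock genes Hspa1a and Hspa1b were higher in several clusters of the RHS library. Of 1775 genes with at least 50 counts in each of the clusters 0, 2, 3 and 5, which held 50 or more cells of both libraries, 2 were at least 1.5-fold higher in all 4: Hspa1a and Hspa1b, which encode the stress-induced chaperone Hsp70. This selection was made after the values were seen. Within single clusters, the higher genes were 3.67%, 2.01%, 2.81% and 3.49% of those with enough counts in clusters 0, 2, 3 and 5, and the lower genes 11.3%, 7.84%, 5.30% and 5.24%. Over all members, Hspa1a was at 998 CPM in the RHS library and 257 CPM in the control library, a ratio of 3.89 (3.68 to 4.10, weighted 3.68). UMIs of it were found in 66.0% of members of the RHS library and 51.0% of the control library, and in 28.9% and 20.1% of Ptprc cells. By cluster from 0 to 7, the ratios of Hspa1a were 3.24, 4.46, 1.86, 5.11, 0.602, 5.32, 3.72 and 13.0, and only cluster 4, with 6 counts in the RHS library, lay below 1.

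Hspa1b was at 1245 CPM in the RHS library and 444 CPM in the control library (ratio 2.81, 2.69 to 2.93, weighted 2.91). The 2 genes are near-identical copies, and how reads were split between them is uncertain. In the other kept skin cells their ratios were 1.75 and 1.61. Other members of the heat shock list moved less. Hsp90aa1, a chaperone of the Hsp90 family, had a ratio of 1.23 (weighted 1.41). That of Dnajb1, the Hsp40 partner of Hsp70, was 0.894 (weighted 1.35). That of Hspb1, the small heat shock protein of keratinocytes, was 0.721 (weighted 1.504). Of the 11 genes, 10, 10, 10 and 11 lay above a ratio of 1 in clusters 0, 2, 3 and 5. Over all genes measured in these clusters, 2443 of 5690, 2525 of 5384, 2555 of 4979 and 2277 of 4629 lay above 1. The median log2 ratios of the list were 0.48, 0.25, 0.47 and 0.88. With 1 library in each group, how a library was handled cannot be told apart from what the mice received.

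The metallothioneins, small proteins that bind zinc and copper, parted from each other. Mt2 was at 1304 CPM in the RHS library and 6365 CPM in the control library, a ratio of 0.205 (0.199 to 0.211, weighted 0.268). Its ratio lay below 1 in all 8 clusters, between 0.231 in cluster 4 and 0.723 in cluster 6. Mt1 was at 1904 CPM in the RHS library and 2248 CPM in the control library, a ratio of 0.847 (weighted 0.990), and its ratios by cluster ran between 0.734 and 1.98. The other kept skin cells had like ratios, 0.215 for Mt2 and 0.889 for Mt1.

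The promoters of the pair, which are neighbours on chromosome 8 and share zinc control, are shown for this contrast. The lines give the 250 bases before the RefSeq start (GRCm38.p6, plus strand, chr8:94178839-94179088 for Mt1 and chr8:94172368-94172617 for Mt2), 5′ to 3′, with the metal response core TGCNCNC in capitals, on either strand.
Mt1: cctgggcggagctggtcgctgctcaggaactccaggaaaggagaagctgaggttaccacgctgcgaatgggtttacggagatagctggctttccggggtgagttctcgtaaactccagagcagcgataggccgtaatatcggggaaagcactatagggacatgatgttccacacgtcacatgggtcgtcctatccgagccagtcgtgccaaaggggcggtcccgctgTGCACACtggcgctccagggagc
Mt2: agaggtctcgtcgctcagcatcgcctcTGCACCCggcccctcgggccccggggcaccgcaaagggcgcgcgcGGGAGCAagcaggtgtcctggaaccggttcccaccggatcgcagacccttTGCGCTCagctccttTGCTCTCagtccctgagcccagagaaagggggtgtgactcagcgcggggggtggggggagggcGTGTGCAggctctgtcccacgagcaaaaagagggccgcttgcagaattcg
Within the 250 bases shown, Mt1 holds 1 metal response core, at -23. Mt2 holds 5, at -223, -178, -128, -113 and -50. Both counts depend on where the RefSeq start was placed, and bases after it were not searched. A lower count is therefore no measure of how many cores a gene has. The core occurs in 47.2% of all promoters of this length. These letters are a description, and nothing on a factor is drawn from them.

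Mt2 was 1 of 24 genes, out of the 1775 with enough counts, that were at least 1.5-fold lower in the RHS library in each of the clusters 0, 2, 3 and 5. Without ribosomal, mitochondrial and similar genes, 17 were left. Of these, 16 were also at least 1.5-fold lower in the other kept skin cells, where 13.0% of 13265 genes with enough counts were lower. They included housekeeping genes such as Ppp1ca, a catalytic subunit of protein phosphatase 1, at 38.2 CPM in the RHS library and 172 CPM in the control library (ratio 0.222, other skin cells 0.229), Cct7, a chaperonin subunit (0.278, other skin cells 0.256) and Eef2, the elongation factor of translation (0.568, other skin cells 0.577). Regulators among them were Rela, an NF-kappaB subunit (ratio 0.274, other skin cells 0.384), Cebpa (0.621, other skin cells 0.433) and Fosl1, an AP-1 factor (0.481, other skin cells 0.349). The exception was Klk7, a protease that helps to shed the outer skin, with a ratio of 0.670 (weighted 0.461) in members and 0.701 in the other skin cells. Whether this set reflects the library or the treatment of the mice cannot be told apart.

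**Figure D5:**
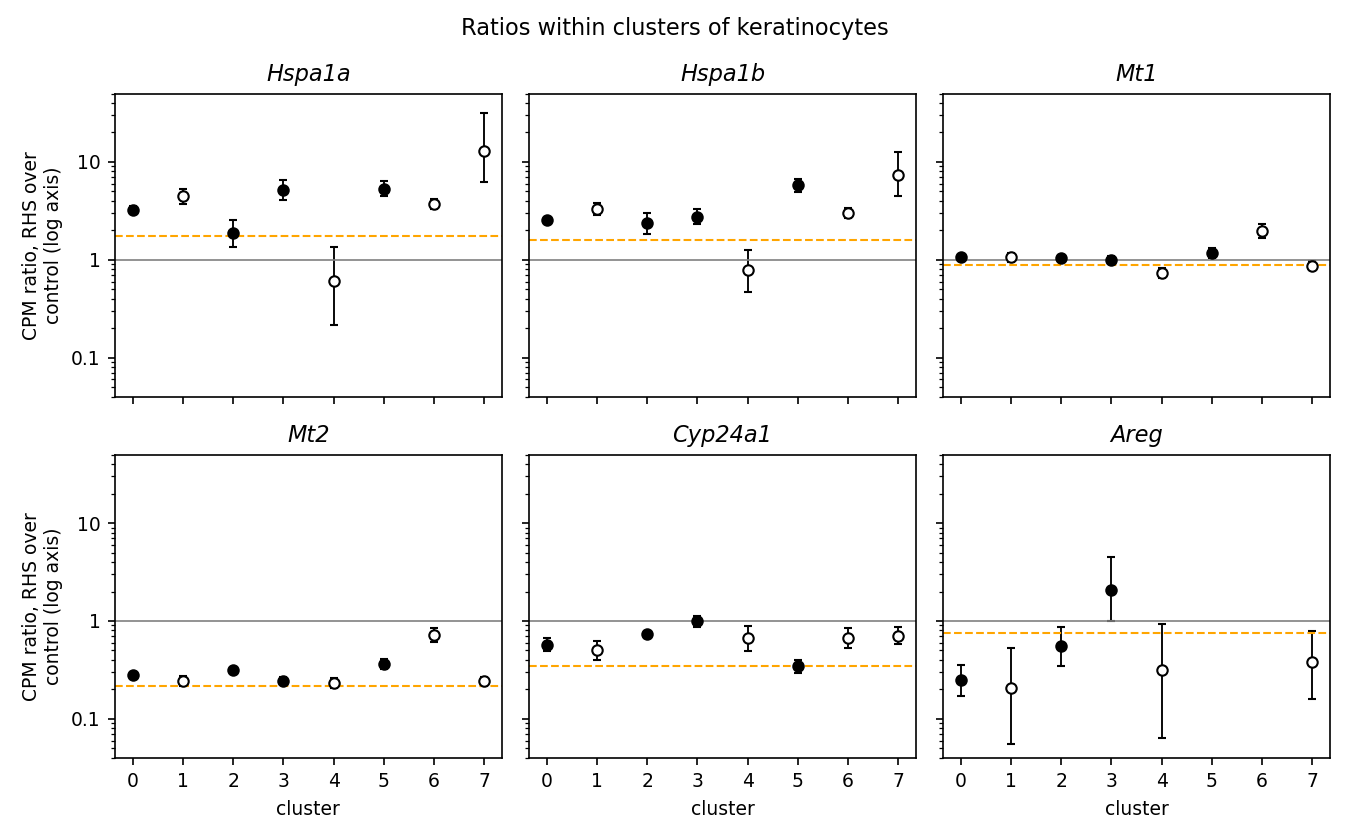
CPM ratio of RHS over control within each cluster on a log axis, with exact 95% counting intervals; filled points are clusters with at least 50 cells in both libraries, open points the others, the grey line a ratio of 1 and the dashed orange line the ratio in the other kept skin cells. Hspa1a and Hspa1b lie above 1 outside cluster 4, Mt1 on both sides of 1, and Mt2 below 1 throughout. Areg is not drawn in clusters 5 and 6, where both libraries had fewer than 20 counts.

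Genes of the vitamin D response were examined because both groups received a vitamin D analogue, by the sample descriptions. Cyp24a1, the enzyme that degrades vitamin D and a well-known target of its receptor, was at 536 CPM in the RHS library and 827 CPM in the control library, a ratio of 0.648 (0.617 to 0.681, weighted 0.628). It lay below 1 in all 8 clusters, from 0.345 in cluster 5 to 0.992 in cluster 3, where the interval (0.876 to 1.12) held 1. Among the few members without upper follicle transcripts it was 2.97, the other way. That value leaves out 407 of 421 members of the RHS library and 863 of 890 of the control library. Vdr, the vitamin D receptor, was at 154 CPM in the RHS library and 187 CPM in the control library (ratio 0.822, weighted 1.13). In the other kept skin cells Cyp24a1 had a ratio of 0.344, and Cyp27b1, which activates vitamin D, had only 9 and 62 counts in members.

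Secreted mediators had low counts. Tslp had 2 counts in the RHS library and 8 in the control library, too few to compare. Il33, an alarmin of barrier cells, had 107 and 209 counts, a ratio of 1.13 (0.882 to 1.43), with ratios of 0.631 in cluster 2 and 0.359 in cluster 3. Il1a, an alarmin stored in keratinocytes, had 28 counts in the RHS library and 229 in the control library, a ratio of 0.269 (0.175 to 0.399, weighted 0.344). Of 10 cytokine genes with enough counts, 2 were at least 1.5-fold higher and 4 lower (over all genes, 7.32% were higher and 19.5% lower). The 2 higher genes were Il19, a relative of Il10, with 178 and 191 counts in 31 and 43 cells (ratio 2.05, 1.66 to 2.52), and Il6, with 66 and 62 counts and 29 of the 66 in 1 cell.

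Slpi, a protease inhibitor of mucosa and wounded skin, was at 62.8 CPM in the RHS library and 285 CPM in the control library, a ratio of 0.220 (0.192 to 0.252, weighted 0.215), against 0.864 in the other kept skin cells. In cluster 1 it had 1 count in 23 RHS cells and 882 counts in 85 of 230 control cells, a ratio of 0.0138 (0.00035 to 0.0773), and in cluster 0 the ratio was 0.175 (0.113 to 0.262). Areg, a growth factor that binds the EGF receptor, was at 29.1 CPM in the RHS library and 98.8 CPM in the control library (ratio 0.294, 0.239 to 0.359, weighted 0.336), with 0.250 in cluster 0 and 0.552 in cluster 2. In cluster 3 Areg had 24 and 12 counts, a ratio of 2.08 whose interval (0.998 to 4.55) held 1. Ereg, a related ligand, had 6 and 40 counts. Id3, a target of BMP signals, was at 232 CPM in the RHS library and 634 CPM in the control library (ratio 0.366, weighted 0.676), with ratios of 0.864, 0.544, 0.519 and 0.663 in clusters 0, 2, 3 and 5. MHC class I genes differed little, with a median log2 ratio of 0.21, and H2-K1 was at 1642 and 1128 CPM (ratio 1.46). Of 14 interferon genes, 1 was higher and 6 lower (over all genes, 7.32% were higher and 19.5% lower).

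Markers of other cells were present at low levels and differed between the libraries. Ptprc was at 0 by the rule. The summed level of 10 immune markers was 168 CPM in members of the RHS library and 101 CPM in the control library, against 21969 and 18302 CPM in the other kept cells. Lyz2, a myeloid gene, had 184 counts in 131 cells of the RHS library and 156 counts in 129 cells of the control library. Fibroblast markers summed to 72.0 and 56.5 CPM, endothelial markers to 3.93 and 11.1 CPM, mural markers to 29.8 and 12.6 CPM, and melanocyte markers to 111 and 54.9 CPM. Single cells carried much of this. Rgs5, a pericyte gene, had 71 counts in the RHS library, 42 of them in 1 cell, and 12 in the control library, and Col3a1, a fibroblast collagen, had 30 counts, 26 of them in 1 cell, and 13. Dct and Tyrp1, pigment genes of melanocytes, had 229 and 61 counts in the RHS library and 275 and 43 in the control library. In cluster 1 Dct had 222 counts in 8 of 23 RHS cells and 211 counts in 32 of 230 control cells. Krt20 and Atoh1, which define Merkel cells, were at 0. The part of these cells in the ratios above was not tested, apart from the values by cluster.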

How the data were processed

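The authors deposited UMI counts, whole numbers that had not been normalized, for 31253 genes in the skin files (per the file headers). GRCm39, Cell Ranger, Seurat 5.1.0 and R 3.6.0 are named in the submitters' processing notes without saying which step used which. The method of barcode calling is not stated. A cell was kept with 200 or more genes and no more than 20% of UMIs from mitochondrial genes. Members followed the gate in the opening, and their counts were summed per library and scaled to CPM. Ratios carry exact intervals conditional on both counts, shares have Clopper-Pearson intervals, and a count of 0 was set at 3 counts. No test across groups was run, because each group has 1 library. Clusters came from scanpy 1.11.5 (2000 variable genes, 20 components, 15 neighbours, Leiden resolution 0.5), and doublets were scored per library with Scrublet. Scripts ran in Python 3.11.15 and were tested on simulated data. Members, gene lists and marker lists were chosen with earlier results of these data known, and 413 of 418 list symbols were found in the files. Named genes are the 12 highest and 12 lowest ratios among genes at least as high in members as in other cells, members of the lists, the leading genes of clusters and a fixed set of markers. Shares of members by marker list, other than for the upper follicle and cycling lists, and the motifs were added after the data were seen. Alternatives varied the gate, cell filter, scaling, weights, depth, doublets and make-up. The ganglia library was not used. Some genes are not reported here. Promoter letters are from RefSeq (GRCm38.p6), another build than that of the counts, and no coordinate was moved between builds.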

Additional observations from a re-analysis of the deposited data

Results flagged for a closer look

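Il19, a cytokine of the IL-10 family, had opposite ratios in 2 clusters of keratinocytes, and this flagged it. Its ratio of RHS over control was 1.91 in cluster 2 (136 and 96 counts) and 0.314 in cluster 0 (10 and 71 counts). Fos, an immediate early gene, had ratios of 2.78 in cluster 0 (1429 and 1147 counts) and 1.67 in cluster 3 (87 and 54 counts), but 0.622 in cluster 2 (115 and 250 counts). Neither difference between clusters was tested, since each cluster has 1 library per group.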

How the results depend on the processing

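With 1 library in each group, no replicate could be left out. No paired analysis was possible because each group has 1 library. The ratio of keratinocyte shares was 0.349 with at most 10% mitochondrial UMIs, 0.617 with only Ptprc-free and Cd74-low cells as the denominator and 0.540 with cells thinned before the gate, and it stayed below 1 throughout. The numbers of higher and lower genes (517 and 1451 of 8647 genes with enough counts) were 70 and 123 of 1318 in the few members without upper follicle transcripts (407 of 421 and 863 of 890 members had them), 58 and 280 of 3896 without cycling transcripts, 255 and 725 with clusters weighted, 112 and 402 of 7090 without clusters 1 and 4 (an alternative chosen after seeing the data), and 70 and 667 at 2-fold. Dividing by the median ratio gave 750 and 1212. The ratio of shares with cycling transcripts (0.883) was 0.717 with 1 more list gene and 1.05 without clusters 1 and 4. With clusters weighted, called ratios crossed 1 for Lamb3 (1.09), Mki67 (1.47), Top2a (1.196), Lhx2 (1.18), Scd1 (0.923), Elovl6 (0.947), Idi1 (0.977) and Fkbp5 (0.984), and the list medians were -0.0134 for sebaceous and 0.18 for G2M genes. Without clusters 1 and 4, Mki67 was at 1.23 and the S phase median at 0.0627. Without cycling transcripts, the S phase median was 0.14. Without upper follicle transcripts, Idi1 was at 0.823, Fkbp5 at 0.869, Cyp24a1 at 2.97, Pkp3 at 1.17 and the Wnt median at 0.0207. With at least 20 UMIs of Krt5 and Krt14, Ccn2 was at 0.994, Dct at 0.307, and the fibroblast and melanocyte medians were -0.41 and -0.92. Of the values recomputed for single genes, 597 kept within their counting interval, 292 moved and 15 crossed 1. The cause was not tested beyond the make-up of the clusters.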
